A study of Arabidopsis thaliana with 12 samples.

Results

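Hypoxia-induced core genes are the loci that Arabidopsis switches on when oxygen runs low. Of 10 listed loci 3 were matched through the array annotation to a probe set of 1 gene, namely AT1G33055, AT4G10270 and AT3G10040, among 22746 probe sets tested. The other 7, PCO1 (AT5G15120), PCO2 (AT5G39890), LBD41 (AT3G02550), PDC1 (AT4G33070), HB1 (AT2G16060), ADH1 (AT1G77120) and SUS4 (AT3G43190), had no probe set listed in that annotation and were not analysed here. The loci were chosen from knowledge of the hypoxia response by a selection made after values of these arrays had been seen, and a wider hypoxia list had stood out in hni9 against WT at low nitrogen. Values of that comparison are therefore given as a description with no p, and so are those of the interaction, which contains it. No threshold on a measured value entered the choice of loci.

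RNA came from roots, 1 array for each of 12 samples, 3 biological replicates in each of 4 groups. The groups were wild type (WT) at high nitrogen, WT at low nitrogen, hni9 at high nitrogen and hni9 at low nitrogen. The mutant is named after HNI9, also called IWS1, which acts in transcript elongation; its gene was not analysed here, and the labels do not give the kind of mutation, the background accession or the plants' age. Plants of the high-nitrogen groups had 10 mM NH4NO3 and those of the low-nitrogen groups 0.3 mM KNO3, so a change between the supplies may belong to the amount, to ammonium or to the other ions, which cannot be told apart. The mutant is titled hni9-1 in replicate 1, hni9-2 in replicate 2 and plain hni9 in replicate 3, and the labels do not say whether these are alleles.

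In plants, oxygen is sensed through group VII ethylene response factors. With oxygen present, plant cysteine oxidases (PCO1 and PCO2 among them) oxidise the N-terminal cysteine of these factors, which marks them for degradation. When oxygen falls the factors persist and switch on a core set of genes: the fermentation enzymes pyruvate decarboxylase and alcohol dehydrogenase, sucrose synthase, a class I haemoglobin that scavenges nitric oxide, and many small proteins of unknown function. HRA1, the product of AT3G10040, is a trihelix transcription factor that dampens the same response by binding the factor RAP2.12. AT4G10270 encodes a small protein of the wound-responsive family, and AT1G33055 a small protein with no known function whose transcript accumulates under hypoxia.

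Values are the deposited intensities on a linear scale. Changes are differences of log2(intensity + 16) with the standard error (SE) of limma, a linear model fitted to all 12 arrays, and a probe set is called where its p is under 0.05 after Benjamini-Hochberg adjustment across the 22746 probe sets. The median intensity of an array was 199 to 221, and the number of arrays limits the precision. The array reports whole roots, so fewer cells of a type and less RNA per cell cannot be told apart. The GAPDH controls, whose 3′ signal over 5′ signal is a sign of RNA integrity, gave a ratio of 1.31 to 1.35 in WT at high nitrogen, 0.921 to 1.19 in WT at low nitrogen, 1.03 to 1.25 in hni9 at high nitrogen and 0.976 to 1.27 in hni9 at low nitrogen. Its part in the results was not tested. Of 12 genes fixed as markers of root tissue and 12 of green shoot tissue, 1 each had a listed probe set. The root hair expansin EXPA7 lay between 504 and 1064 on every array, and the Rubisco activase gene RCA between 143 and 1180.

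AT1G33055 was the member with the clearest pattern. In WT at high nitrogen its intensities were 141, 117 and 236 in replicates 1, 2 and 3. In WT at low nitrogen they were 516, 380 and 474. In hni9 they were 129, 126 and 110.0 at high nitrogen and 56.4, 62.2 and 52.9 at low nitrogen. The 3 WT arrays at low nitrogen were thus the highest of the 12 and the 3 hni9 arrays at low nitrogen the lowest, while the 2 genotypes overlapped at high nitrogen. As means ± SD (n = 3) the order was 457 ± 69.3 in WT at low nitrogen, 165 ± 62.8 in WT at high nitrogen, 122 ± 10.3 in hni9 at high nitrogen and 57.2 ± 4.69 in hni9 at low nitrogen. The 2 middle groups did not differ beyond their spread. Ranked among all probe sets of its array, the gene stood at percentiles 64.8 to 72.2 in WT at low nitrogen, 35.4 to 51.8 at high nitrogen over both genotypes, and 25.6 to 26.4 in hni9 at low nitrogen.

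AT4G10270 was also brightest in WT at low nitrogen, with less distance to the other groups. Its intensities there were 277, 223 and 238, against 154, 193 and 98.5 in WT at high nitrogen. In hni9 they were 192, 39.8 and 171 at high nitrogen and 79.4, 163 and 120.0 at low nitrogen. The 3 WT arrays at low nitrogen lay above all other 9 arrays, and the remaining groups overlapped one another. The group means ± SD (n = 3) were 246 ± 27.6, 149 ± 47.6, 134 ± 82.5 and 121 ± 41.8 in that order.

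HRA1 was dim throughout. In WT its intensities were 109.7, 95.8 and 179.9 at high nitrogen and 135, 97.8 and 188 at low nitrogen, which overlap. In hni9 they were 124, 28.9 and 131 at high nitrogen and 39.2, 90.6 and 41.7 at low nitrogen. From highest to lowest the group means ± SD (n = 3) were 140.4 ± 45.3 in WT at low nitrogen, 128 ± 45.1 in WT at high nitrogen, 94.7 ± 57.1 in hni9 at high nitrogen and 57.2 ± 29.0 in hni9 at low nitrogen, and neighbours in that order did not differ beyond their spread. The array of hni9 replicate 2 at high nitrogen was the lowest of its group for both HRA1 and AT4G10270, and that of hni9 replicate 2 at low nitrogen the highest of its group for all 3 genes.

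**Figure D1:**
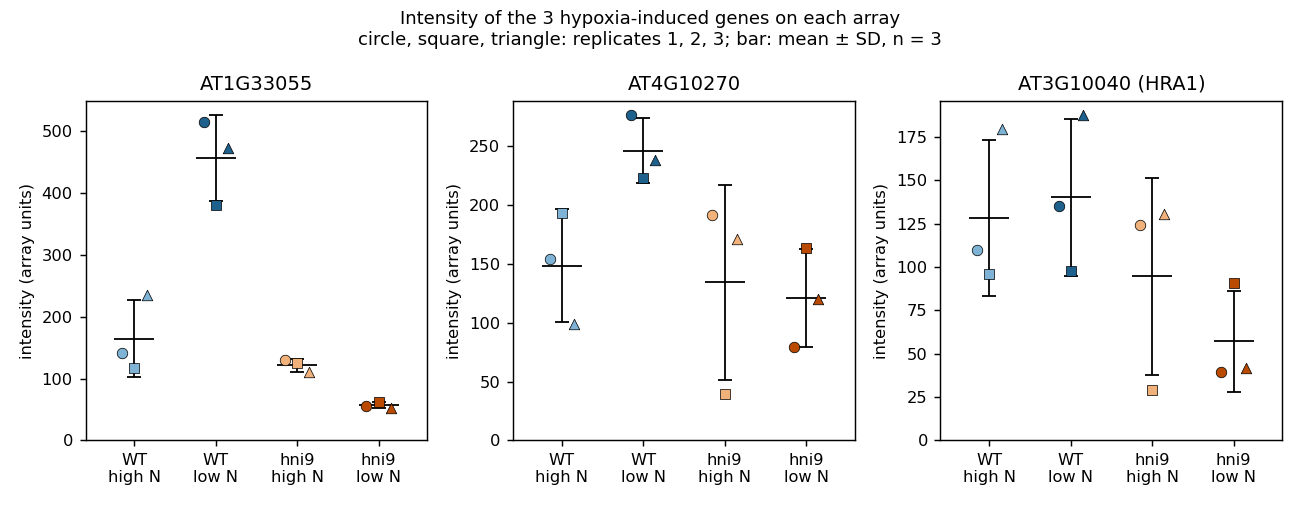
Intensity (array units, linear axis from 0) of AT1G33055, AT4G10270 and AT3G10040 (HRA1) on each of the 12 arrays, by genotype and nitrogen supply. Points are replicates 1, 2 and 3, horizontal bars the group means and error bars the SD (n = 3); AT1G33055 lies at 380 to 516 in WT at low nitrogen and at 52.9 to 62.2 in hni9 at low nitrogen.

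The nitrogen response of WT asks whether the genes differ between the supplies in the wild type. AT1G33055 rose at low nitrogen by 1.43 ± 0.25 (SE, limma, adjusted p = 0.00287), a 2.69-fold change, and stood 116th from the top of 22746 probe sets. AT4G10270 had 0.71 ± 0.42 (adjusted p = 0.433) and HRA1 0.12 ± 0.45, with an adjusted p of 0.94 for the latter. So 1 of 3 members was called, where 5.74% of all probe sets were called in either direction. The groups did not overlap for 2 of 3 members, AT1G33055 and AT4G10270, against 24.9% of all probe sets. This comparison shares its 3 low-nitrogen arrays with the one in which the hypoxia list had stood out, so it is not independent of the choice of genes.

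The same question in hni9 gave the opposite sign for AT1G33055. It fell by 0.91 ± 0.25 on the log2 scale at low nitrogen (limma, adjusted p = 0.0482), from 110.0 to 129 at high nitrogen to 52.9 to 62.2. The call was narrow and was lost under 17 of 21 alternative settings. Over all 21 the change lay between -1.08 and -0.62 and the adjusted p between 0.0175 and 0.145. AT4G10270 had 0.03 ± 0.42 and HRA1 -0.48 ± 0.45, and neither was called. Without hni9 replicate 2 at high nitrogen these 2 values were -0.57 and -1.04. In all 1 of 3 members was called, against 5.1% of all probe sets, and 1 of 3 had groups that did not overlap, against 19.6%. The hni9 arrays at low nitrogen are again shared with the comparison that the choice had seen.

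At high nitrogen hni9 and WT were compared on 6 arrays that none of the low-nitrogen values come from. No member was called: 0 of 3 passed in limma, where 7.67% of all probe sets were called. At an unadjusted p under 0.05 there were 0 of 3 members, against 4706 of all 22746 probe sets. AT1G33055 had -0.34 ± 0.25 (adjusted p = 0.492), AT4G10270 -0.30 ± 0.42 and HRA1 -0.52 ± 0.45. The groups overlapped for all 3 members, while they were apart for 25.8% of all probe sets. Without hni9 replicate 2 the last 2 values turned to 0.30 and 0.03.

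At low nitrogen all 3 members were lower in hni9 than in WT. AT1G33055 changed by -2.68 ± 0.25, or 6.42-fold, which was the 6th lowest change of 22746. HRA1 changed by -1.12 ± 0.45 and AT4G10270 by -0.98 ± 0.42. Their groups did not overlap for 3 of 3 members, with hni9 below WT, where 9.64% of all probe sets had hni9 below WT on all 3 arrays and 18.3% were apart in either direction. Of the 3 members 1, AT1G33055, was called, where 2.06% of all probe sets were called and 1.33% were called lower. These are the values that the list was chosen with, so the counts are a description. The median change of the 3 members was -1.12, beside -0.00 over all probe sets.

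The root hair marker moved in the same comparison. EXPA7 was higher in hni9, at 904, 838 and 1016 against 504, 639.6 and 599 in WT at low nitrogen, a change of 0.65 ± 0.12. At high nitrogen it was higher as well, by 0.47 ± 0.12 (adjusted p = 0.0235), where no member was called. RCA overlapped between the genotypes at low nitrogen, with 503, 500.2 and 631 in WT and 1180, 289.6 and 238 in hni9. The part of root hair or shoot cells in the members' change was not tested.

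The interaction is the change of hni9 at high nitrogen minus its change at low nitrogen. AT1G33055 had 2.34 ± 0.35, the 23rd highest of 22746, and was 1 of 3 members called where 0.703% of all probe sets were. AT4G10270 had 0.67 ± 0.60 and HRA1 0.60 ± 0.63. With replicates 1 and 2 alone the call of AT1G33055 was lost. A rise at low nitrogen in WT together with a fall in hni9, both called in the limma fit to all 12 arrays, was found for 4 probe sets, or 0.0176% of all. Besides AT1G33055 these were AT4G12500, a gene of the lipid transfer protein superfamily, and 2 probe sets with no gene listed in the annotation. They were looked up after their values had been seen, and AT1G33055 is among the 4 by the narrow hni9 call given above, which was lost in a fit of the 6 hni9 arrays alone (adjusted p = 0.145). WT arrays at low nitrogen above all other 9 and hni9 arrays at low nitrogen below all other 9 occurred for 11 probe sets, or 0.0484%, AT1G33055 among them.

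Likeness to AT1G33055 was measured as Pearson's r of the log2 values over the 12 arrays, among 5962 single-gene probe sets brighter than the median, and is given as a description since all values come from the same arrays. The most alike gene was AT1G50060, a pathogenesis-related 1-like gene (r = 0.915, Spearman's rho = 0.86). Its intensity ± SD (n = 3) was 612 ± 62.4 and 1039 ± 69.9 in WT at high and low nitrogen, and 422 ± 39.7 and 369 ± 7.33 in hni9. AT4G12500 followed (r = 0.898), at 851 ± 261 and 2434 ± 93.3 in WT and 835 ± 347 and 361 ± 102 in hni9. Next came AT1G80380, which encodes glycerate kinase (r = 0.888), the class III peroxidase gene AT5G64100 (r = 0.885), the hydrolase gene AT3G23600 (r = 0.873) and AT1G70780 (r = 0.862). None of the 6 is on either list of hypoxia genes used here. The brightness limit had removed the dimmer genes of those lists, HRA1 and AT4G10270 among them, before the ranking, so they could not appear. The log2 changes of the 6 genes in hni9 against WT at low nitrogen ran from -2.74 to -0.45. The choice by likeness to AT1G33055 on the same arrays largely fixes this range. Among the members themselves r was 0.519 between AT1G33055 and AT4G10270, 0.641 between AT1G33055 and HRA1, and 0.715 between AT4G10270 and HRA1.

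**Figure D2:**
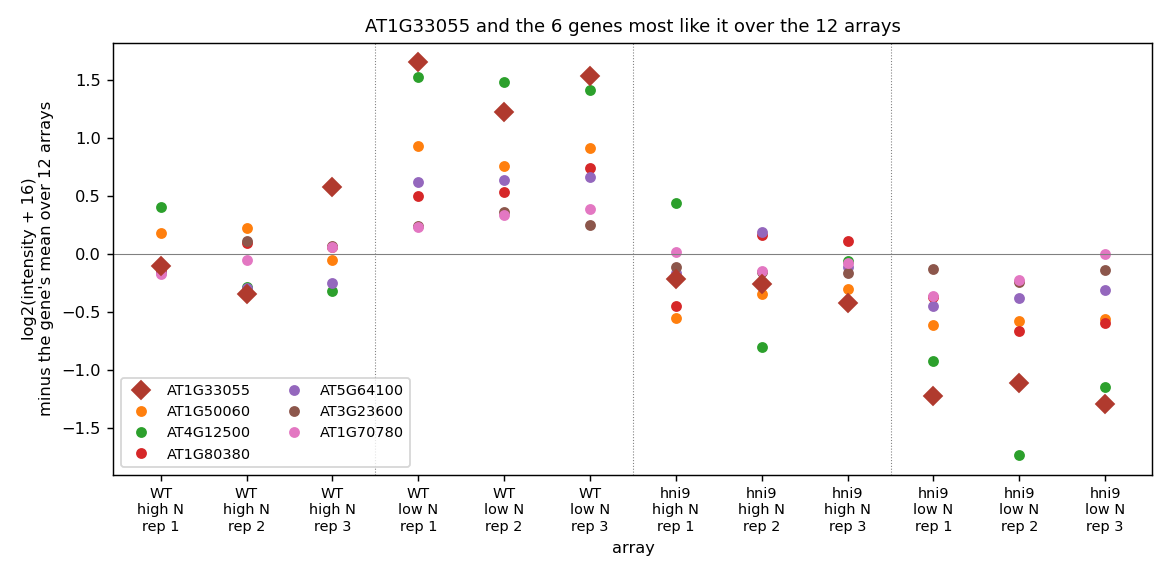
log2(intensity + 16) of AT1G33055 (diamonds) and of the 6 genes with the highest Pearson's r to it, each minus its own mean over the 12 arrays (vertical axis), by array (horizontal axis). All 7 genes lie above 0 on the 3 WT arrays at low nitrogen; r is 0.862 to 0.915.

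The measured genes next to the members in the genome's gene order had smaller log2 differences between the genotypes at low nitrogen than the members did. The members were chosen after values of that comparison had been seen, so this gap is a description. The neighbours of AT1G33055 in the RefSeq table of assembly TAIR10.1 are AT1G33050, with -0.23 in hni9 against WT at low nitrogen, and NAC014, with -0.20, and neither was called in any of the 5 comparisons. The measured neighbours of AT4G10270 and HRA1, AT4G10280 and AT3G10030, had 0.25 and -0.29 and were not called either. AT4G10265, the other neighbour of AT4G10270, had no probe set listed.

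A further 38 genes of the core hypoxia response were listed from knowledge of the field, with earlier results of these data known, and 22 of them had a single-gene probe set. In WT 2 of the 22 rose at low nitrogen, 1 fell and 19 did not pass, where 5.74% of all probe sets were called. The median change was 0.10 beside -0.02 over all probe sets. In hni9 2 rose and 1 fell, where 5.1% of all were called, with a median of -0.23 beside -0.05. The genes were HRU1, AT5G66985 and PDC2 in each genotype. At high nitrogen 1 of the 22, AT5G66985, was lower in hni9 than in WT, where 7.67% of all were called, with a median over the 22 of -0.02 beside 0.03. The low-nitrogen comparison of the genotypes and the interaction were in view when this list was made, so their counts are a description. Each nitrogen comparison shares its low-nitrogen arrays with that comparison of the genotypes, so its counts and p-values are not independent of the choice. At low nitrogen 2 of the 22, AT4G27450 and AT3G29970, were called lower in hni9, where 1.33% of all were, with a median of -0.19 beside -0.00. For 6 of the 22 the 3 hni9 arrays lay below the 3 WT arrays at low nitrogen, and for 0 above, against 2192 probe sets (9.64%) below and 1974 above among all 22746. The interaction passed for 0 of the 22 in limma, where 0.703% of all passed, with 8 of the 22 and 2475 of all 22746 probe sets at an unadjusted p under 0.05.

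PDC2 (AT5G54960), a pyruvate decarboxylase that turns pyruvate to acetaldehyde in ethanol fermentation, went the other way from AT1G33055 in WT. Its intensities were 1955, 1845 and 1864 in WT at high nitrogen and 409, 579.9 and 419 at low nitrogen. In hni9 they were 1303, 1024 and 1203 at high and 383, 813 and 377 at low nitrogen. All low-nitrogen arrays lay below all high-nitrogen arrays of either genotype. The fall at low nitrogen was -1.99 ± 0.23 in WT (limma, adjusted p = 9.85e-05), the 39th lowest change of all probe sets, and -1.23 ± 0.23 in hni9 (adjusted p = 0.00499), with hni9 replicate 2 at low nitrogen the highest of its 3 arrays. In hni9 the call was lost in a limma fit of its own 6 arrays (adjusted p = 0.0542) and with replicates 1 and 2 alone (adjusted p = 0.154). The interaction was -0.76 ± 0.32 and was not called. Between genotypes PDC2 had -0.68 ± 0.23 at high nitrogen (adjusted p = 0.0871), where its groups did not overlap, and 0.08 ± 0.23 at low nitrogen.

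HRU1 (AT3G03270), a universal stress protein of the hypoxia response, rose at low nitrogen in each genotype. Its intensities were 754, 699 and 765 in WT at high nitrogen and 1428, 1364 and 1412 at low nitrogen, a change of 0.91 ± 0.13 (limma, adjusted p = 0.000831). In hni9 they were 1027, 689.9 and 939 at high and 1179, 1534 and 1220 at low nitrogen, a change of 0.57 ± 0.13 (adjusted p = 0.0234). The groups were apart in both genotypes, and the hni9 call was lost under 5 of 21 settings, among them without hni9 replicate 2 at high nitrogen (adjusted p = 0.0718) or at low nitrogen (adjusted p = 0.0811). AT5G66985, a gene of unknown function, also rose in both. It read 1133, 1048 and 891 in WT at high nitrogen and 2231, 1856 and 1739 at low nitrogen, a change of 0.91 ± 0.15 (adjusted p = 0.0017). In hni9 it read 665, 615 and 453 at high and 1526, 1426 and 1200 at low nitrogen, a change of 1.25 ± 0.15 (adjusted p = 0.000147). Its change in hni9 against WT at high nitrogen was -0.82 ± 0.15 (adjusted p = 0.00359), with all 3 hni9 arrays below all 3 of WT.

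AT4G27450 and AT3G29970 had their highest mean in WT at low nitrogen and their lowest in hni9 at low nitrogen, as did CML38 and AT5G10040, which were not called. The low-nitrogen values were in view when the list was made and are a description. AT4G27450, an aluminium-induced protein gene, read 891, 541 and 645 in WT at low nitrogen and 207, 462 and 256 in hni9, against 484 to 524 and 436 to 580.2 at high nitrogen. It changed by -1.18 ± 0.24 in hni9 at low nitrogen. AT3G29970, which encodes a B12D family protein, read 132, 93.3 and 178 in WT at low nitrogen and 19.2, 41.0 and 33.0 in hni9, against 41.0 to 85.4 and 36.9 to 117 at high nitrogen. Its change at low nitrogen was -1.67 ± 0.39. The call was lost under 7 of 21 settings for AT4G27450 and under 10 of 20 for AT3G29970. In neither genotype was the nitrogen response of these 2 genes called, and neither were their interactions of 1.25 ± 0.34 and 1.84 ± 0.54.

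**Figure D3:**
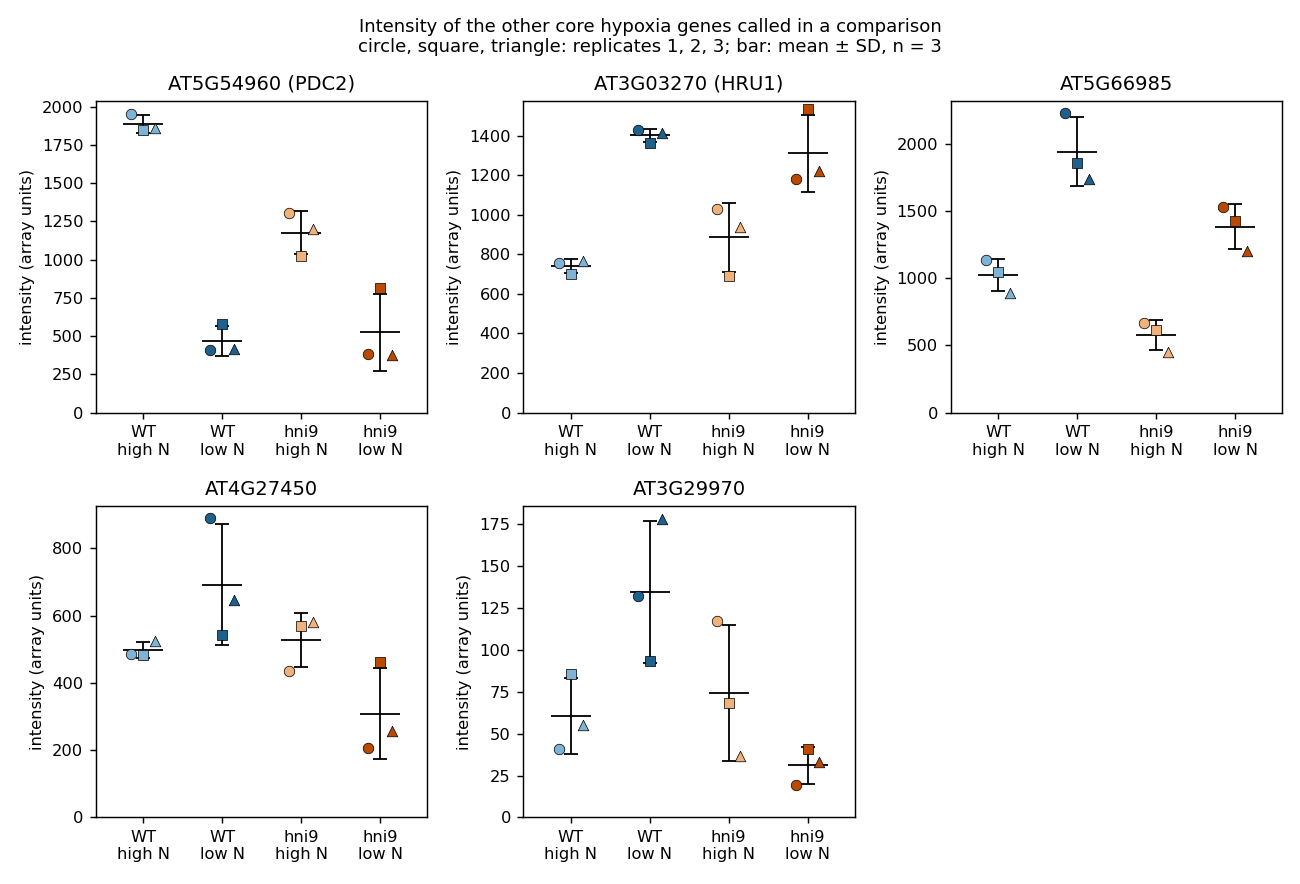
Intensity (array units, linear axis from 0) on each of the 12 arrays of the 5 other core hypoxia genes called in at least 1 comparison. Points are replicates 1, 2 and 3, horizontal bars the group means and error bars the SD (n = 3); PDC2 lies at 1845 to 1955 in WT at high nitrogen and at 409 to 579.9 in WT at low nitrogen.

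The remaining core genes gave no call. AT3G10020 and AT4G24110, singled out after their values were seen, came near to one. AT3G10020 had -1.015 ± 0.279 at low against high nitrogen in hni9 (limma, adjusted p = 0.051) and -0.925 ± 0.279 in WT (adjusted p = 0.0716). In both genotypes its low-nitrogen arrays lay below its high-nitrogen arrays. AT4G24110 was 2.15-fold higher in hni9 at high nitrogen (limma, adjusted p = 0.0562), with the hni9 arrays above those of WT. The lactate dehydrogenase gene AT4G17260, of the fermentation list, had 0.52 ± 0.15 at low against high nitrogen in WT (adjusted p = 0.0528), with intensities of 774, 768 and 914 at high and 1054, 1194 and 1288 at low nitrogen. Pyruvate, orthophosphate dikinase (AT4G15530) changed by between -0.43 and 0.45 over the comparisons and was not called in any. Of the 10 genes on the fermentation list 3 were measured, PDC2 among them. Of the 13 oxygen-sensing and group VII factor genes, the 12 sucrose synthases and phosphofructokinases and the 2 other haemoglobins, 0 had a probe set listed, so none was analysed here.

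**Figure D4:**
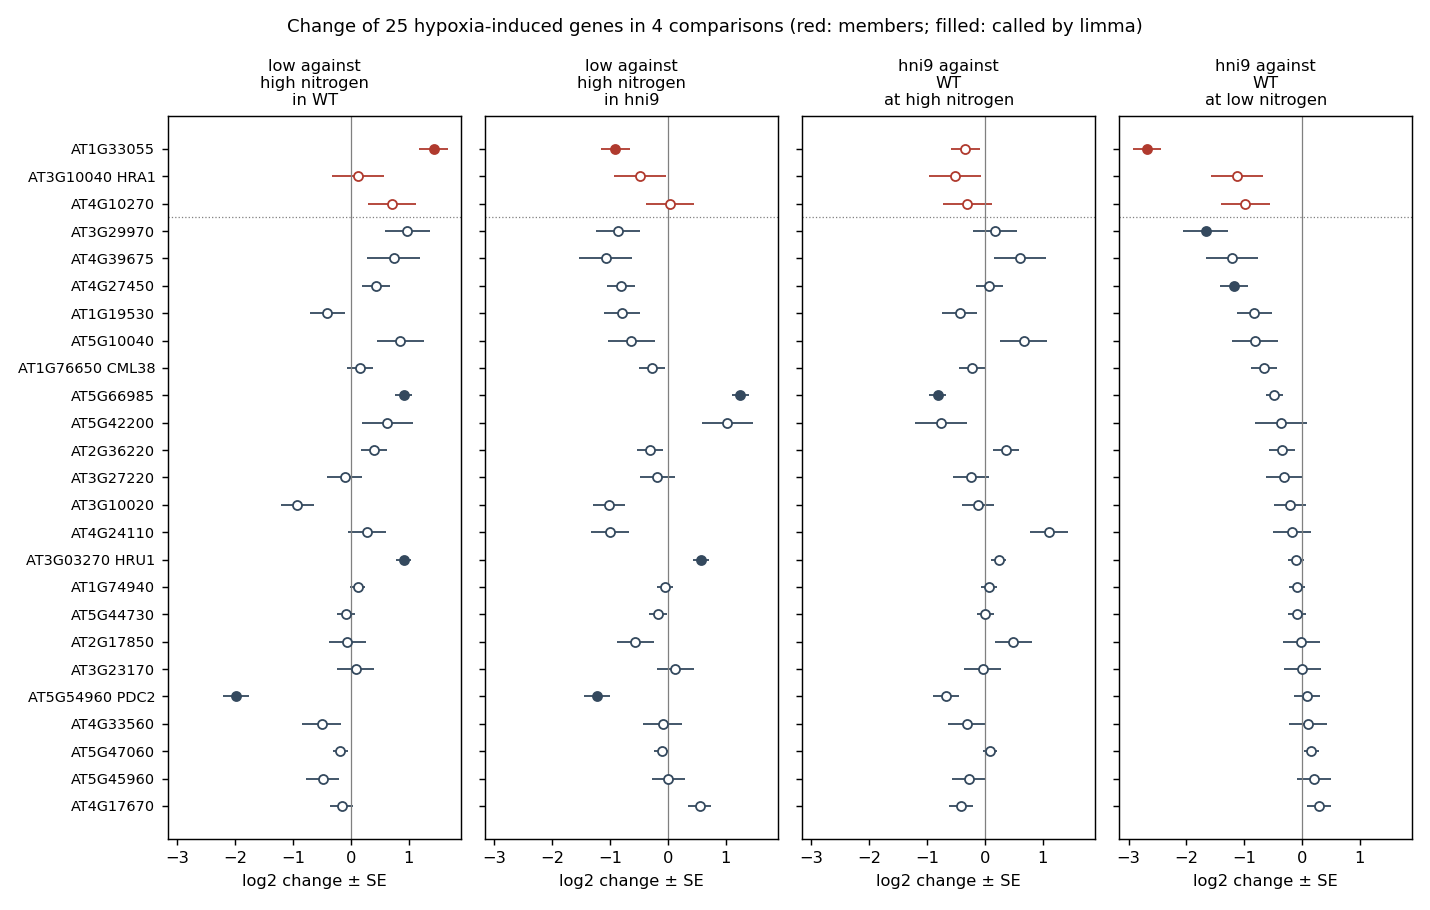
log2 change ± SE (limma, horizontal axis) of the 3 members (red) and the 22 other core hypoxia genes (dark) in 4 comparisons; filled points are called at an adjusted p under 0.05. AT1G33055 stands at 1.43 in WT and -0.91 in hni9 for low against high nitrogen, and at -2.68 in hni9 against WT at low nitrogen.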

How the data were processed

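The deposited table gives 1 intensity per probe set and array. The values are linear intensities that the authors had scaled to a common level: on every array the mean trimmed by 2% at each end is 500, as read from the values. The program that summarised probes is not named in the labels or headers. Of 22810 probe sets 64 controls were left out. Groups and replicate numbers come from the labels.

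Intensities were transformed as log2(value + 16), which compresses changes of dim genes: 10.8% to 15.0% of an array's values were under 16. limma 3.58.1 in R 4.3.3 fitted 1 mean per group to all 12 arrays (eBayes with intensity trend, 8 residual degrees of freedom). The fit was tested on simulated data with known changes and independent noise. These held no batch or replicate structure, so the test does not cover such effects.

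The annotation gave 1 gene to 13513 probe sets, several to 503 and did not list 8730, and gave 13286 loci of the RefSeq table. Members and lists were chosen with earlier results of these data known. Named were all members, from each list the genes of smallest adjusted p, and the 6 most alike to the member with the largest change at low nitrogen. Detection calls were not used here.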

Additional observations from a re-analysis of the deposited data

Results flagged for a closer look

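AT1G33055 is listed here because it was the 1 member whose interaction was called. Its 3 low-nitrogen arrays lay above the high-nitrogen arrays in WT and below them in hni9. On the log2 scale its response to low nitrogen was 1.43 ± 0.25 (SE) in WT and -0.91 ± 0.25 in hni9, which makes an interaction of 2.34 ± 0.35. The difference contains the comparison that was in view when the genes were chosen. The call therefore served only to list the gene, and the difference is given as a value with no p. Groups of 3 arrays are too small for the search for single outlying samples.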

How the results depend on the processing

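Of 3 members the count called stayed at 1 for WT at low against high nitrogen and for hni9 against WT at low nitrogen, and at 0 for hni9 against WT at high nitrogen, under all 21 alternatives. The change of AT1G33055 ranged from 1.21 to 1.70 in the first and from -2.97 to -2.10 in the second. For hni9 at low against high nitrogen the count of 1 became 0 with 64 added, after quantile normalization, with arrays centred on their medians, without the intensity trend, with only the groups compared, with the replicate block (adjusted p = 0.0543) and with replicates 1 and 2 alone, and was 0 to 1 with arrays left out in turn. The interaction count of 1 became 0 with replicates 1 and 2 alone. Without the dimmest 40% only 2 of the 3 members were tested, as HRA1 was left out. Same-numbered arrays had correlations of their deviations of 0.0227 to 0.15 over 12 pairs, 5 of them over 0.1. Replicate 3 had the highest in each comparison, at 0.117 to 0.15. The labels do not say that a number is shared, so the block is an alternative only.

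Among the 22 other core genes the count at high nitrogen was 2 in place of 1 with 64 added, after quantile normalization, with centred arrays, without the trend, with the dimmest 40% left out, with only the groups compared and with the replicate block, and 1 to 2 with arrays left out. In hni9 at low against high nitrogen 3 became 5 without the dimmest 40%, and 1 with only the groups compared or replicates 1 and 2 alone. At low nitrogen 2 became 0 without the trend or with replicates 1 and 2 alone, and 1 without the dimmest 40% or with only the groups compared. With arrays left out the count was 0 to 3, and the interaction count of 0 was 0 to 1. The fit without the dimmest 40% held only 13 of the 22 genes. AT3G29970 was not tested in it, and AT4G27450 stayed called.

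Signs turned for uncalled values only. AT4G10270 in hni9 at low against high nitrogen had -0.019 with 64 added and -0.57 to 0.38 with arrays left out, and -0.65 to 0.30 in hni9 against WT at high nitrogen. HRA1 had -0.095 to 0.36 in WT and -0.82 to 0.035 in hni9 against WT at high nitrogen with arrays left out, and no value without the dimmest 40%.

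Over all probe sets the counts of 1305 (WT) and 1160 (hni9) for nitrogen, 1744 (high) and 469 (low nitrogen) for genotype and 160 for the interaction were 795, 647, 929, 156 and 21 without the trend and 413, 362, 482, 83 and 1 with replicates 1 and 2 alone; the second was 439 with only the groups compared. With arrays left out they ranged from 779 to 1516, 734 to 1071, 1048 to 1988, 187 to 616 and 67 to 254. Where a call ended, the cause was not tested.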
